A study of Homo sapiens with 4 samples.

Results

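Glycosaminoglycan synthesis was followed through 44 named genes, which encode the enzymes that build and sulfate chondroitin, dermatan, heparan and hyaluronan chains and 5 core proteins that carry such chains. The genes were taken from a list of symbols, and all 44 were found among the 25609 genes of the expression table. RNA came from HK-2, an immortalised line of human kidney proximal tubule epithelium labelled as wild type. The 2 TGF-β1 libraries came from cells given transforming growth factor β1 (24 h, 20 ng/mL) once serum had been withheld for 24 h, and the 2 control libraries from cells labelled control. All 4 carry 1 protocol text, which includes 100 μM 4-thiouridine, a uridine analogue, over the last 20 h, and the controls are read here as differing in TGF-β1 alone. Nothing in the labels says that replicates came from separate cultures, so p-values reflect how far these libraries vary, which can be technical variation.

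Glycosaminoglycans are long sugar chains. Chondroitin and heparan chains are built in the Golgi on serines of a core protein, starting from a short linker that opens with xylose. Polymerases then extend them and sulfotransferases add sulfate at set positions, and that pattern decides which growth factors, chemokines and matrix proteins bind. Hyaluronan differs in being made at the plasma membrane, without a core protein or sulfate. In the kidney tubule, heparan sulfate proteoglycans sit on the basolateral surface and in the basement membrane, and chondroitin sulfate proteoglycans are known to collect in scarred interstitium.

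Expression was given as RPKM, and whole reads recovered from it summed to between 4639276 and 5452258 with TGF-β1 and between 3337059 and 4802151 in controls. Markers of tubular epithelium were present, with all 8 at a mean RPKM of at least 0.5 and summed levels of 400.1 and 438.6 RPKM with TGF-β1 against 366.5 and 395.9 RPKM in controls. These markers moved unevenly, and their part in the results was not tested. Within that list KRT8 and KRT18 rose and PAX8, KRT19, EPCAM and CDH16 fell. Of the 5 fibroblast markers analysed, 1 reached that level, LUM, itself a proteoglycan core. The fibroblast list summed to 9.10 and 7.13 RPKM with TGF-β1 and 12.4 and 13.0 RPKM in controls, and DCN had 2 and 2 reads with TGF-β1 and 4 and 3 in controls. Both endothelial markers analysed had 0 reads. Of 2 leukocyte markers analysed, CD14 was measured at 1.72 and 0.732 RPKM with TGF-β1 and 0.860 and 1.41 RPKM in controls. The other, CD68, had 1 and 2 reads with TGF-β1 and 3 and 4 in controls.

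Of the 44 members, 36 had a mean RPKM of at least 0.5 and were tested. With TGF-β1, 7 rose and 1 fell, taking as called an adjusted p under 0.05 by limma (Benjamini-Hochberg, all 16590 genes tested). Those 8 are 22.2% of the tested members, where 9.12% of all tested genes were called, 6.12% higher and 3.0% lower. The rises were 3 chondroitin sulfotransferases (CHST11, CHST3, CHST15), 2 heparan-modifying enzymes (NDST1, HS3ST3A1) and 2 cell-surface cores (SDC1, GPC1), and the fall was the hyaluronan synthase HAS3. No enzyme of the linker, of chain polymerisation or of precursor supply passed. The median log2 fold change was 0.13 over the tested members and 0.03 over all tested genes. Groups did not overlap in 66.7% of the tested members, against 54.1% of all tested genes. These shares set unlike genes side by side, since the median of mean RPKM was 7.18 over tested members and 3.26 over all tested genes. With the filter at 2 RPKM, 1750 of 10440 genes were called, and of 34 members 7 were called higher and 3 lower. The members were also chosen with earlier results of these data known. RNA of a culture is measured in bulk, so fewer cells expressing a gene and less RNA per cell cannot be told apart.

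**Figure D1:**
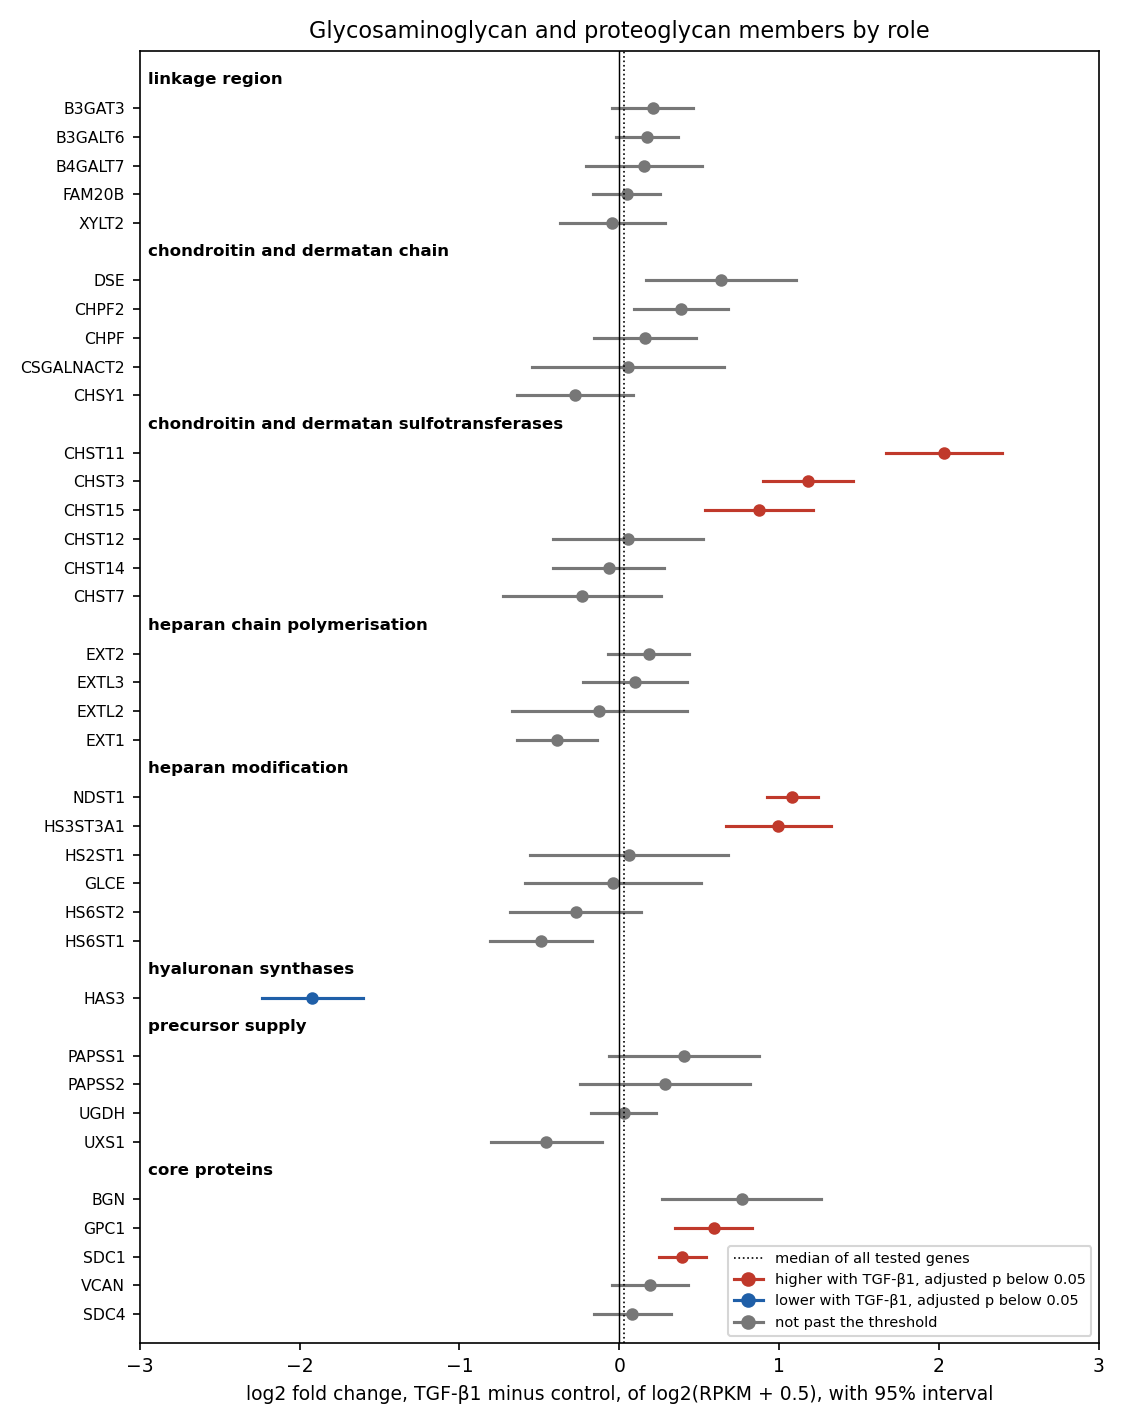
Log2 fold change of the 36 tested members (TGF-β1 minus control, on log2(RPKM + 0.5)), grouped by role, with limma's 95% confidence interval as a line. CHST11 at 2.03 and HAS3 at -1.92 lie farthest from 0, and the linker enzymes all lie between -0.04 and 0.21.

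Of these, 3 genes kept their call under each of the 13 alternative settings: CHST11, NDST1 and HAS3. The bases upstream of their RefSeq starts are shown because these are the genes on which the account of sulfation and hyaluronan rests. Each sequence is 250 bases long on GRCh38.p14, plus strand, read 5′ to 3′ up to the base before the start. Capitals mark matches, on either strand, to words searched for factors known to act with TGF-β: CAGACA and GGCGCC (SMAD), TGANTCA (AP-1) and GGAATG (TEAD).
NDST1 (chr5:150497529-150497778): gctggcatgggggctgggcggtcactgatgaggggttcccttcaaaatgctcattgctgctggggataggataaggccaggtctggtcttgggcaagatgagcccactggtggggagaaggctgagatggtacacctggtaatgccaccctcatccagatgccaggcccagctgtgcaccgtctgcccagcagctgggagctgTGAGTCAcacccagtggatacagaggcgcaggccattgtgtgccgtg
CHST11 (chr12:104456698-104456947): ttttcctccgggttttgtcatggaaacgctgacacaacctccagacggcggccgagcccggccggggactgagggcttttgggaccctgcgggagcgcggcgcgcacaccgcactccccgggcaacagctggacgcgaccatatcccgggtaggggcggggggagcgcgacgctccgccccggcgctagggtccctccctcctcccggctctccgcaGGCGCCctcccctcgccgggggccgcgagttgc
HAS3 (chr16:69107290-69107539): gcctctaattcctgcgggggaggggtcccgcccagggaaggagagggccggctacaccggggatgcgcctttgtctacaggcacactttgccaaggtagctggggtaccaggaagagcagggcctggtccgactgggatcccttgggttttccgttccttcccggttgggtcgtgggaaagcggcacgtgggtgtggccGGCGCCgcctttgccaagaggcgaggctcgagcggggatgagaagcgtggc

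The NDST1 stretch held the AP-1 word TGAGTCA with its first base at -47 from the start, and a second match, TGATTCA, began at -2. GGCGCC began at -33 from the RefSeq start of CHST11 and at -51 from that of HAS3, so this word was found for a gene that rose and for the one that fell. All 3 stretches lie inside the GENCODE 29 bounds of their genes, downstream of the gene's first annotated base. RefSeq windows of 250 bases before and 50 after a start were found for 38 members (53 windows, some of which overlap within a gene) and not for CSGALNACT1, EXT1, EXTL3, HAS2, PAPSS2 and SULF1. GGCGCC occurred in 28.3% of the members' windows and in 19.2% of all 35116 windows, and the median GC content was 70.3% and 58.7%. The other words were found in 5.66% of members' windows and 7.71% of all windows (TGANTCA), in 11.3% and 16.9% (CAGACA) and in 11.3% and 14.0% (GGAATG). These matches describe letters and not bound sites.

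The linker is begun by the xylosyltransferases XYLT1 and XYLT2, extended by the galactosyltransferases B4GALT7 and B3GALT6, closed by the glucuronosyltransferase B3GAT3 and phosphorylated on its xylose by the kinase FAM20B. None of the 5 tested linker genes passed, and their log2 fold changes lay between -0.04 and 0.21. Summed over the 6 genes, the level was 77.3 and 75.2 RPKM with TGF-β1 and 68.7 and 70.3 RPKM in controls. B3GALT6 had the smallest p, with 22.2 and 23.2 RPKM with TGF-β1 against 19.7 and 20.5 RPKM in controls (adjusted p = 0.245, limma). B3GAT3 had 24.9 and 21.4 RPKM with TGF-β1 and 20.3 and 19.5 RPKM in controls (adjusted p = 0.283, limma), again without overlap. XYLT2 was measured at 5.69 and 6.69 RPKM with TGF-β1 and at 6.44 and 6.32 RPKM in controls, so the groups overlapped. Its paralog XYLT1 had 0 and 1 reads with TGF-β1 and 1 and 0 reads in controls. Transcripts of the first xylose step therefore came almost wholly from XYLT2 in these cells. The signs for B4GALT7, B3GALT6 and FAM20B turned with scaling by total recovered reads.

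On the chondroitin branch, the chain is started by CSGALNACT1 and CSGALNACT2 and extended by the polymerase CHSY1 with CHSY3, CHPF and CHPF2, while DSE epimerises glucuronic acid and so turns chondroitin into dermatan. None of the 5 tested genes of this step passed. DSE had the smallest p, with 3.81 and 3.12 RPKM with TGF-β1 and 2.13 and 1.95 RPKM in controls (log2 fold change 0.64, SE 0.18, adjusted p = 0.107, limma). Its groups did not overlap, and it did pass with voom on recovered reads (adjusted p = 0.00127). CHPF2 was measured at 12.9 and 11.4 RPKM with TGF-β1 and at 9.71 and 8.63 RPKM in controls, without overlap (adjusted p = 0.116, limma). CHSY1 pointed the other way, with 3.62 and 3.92 RPKM with TGF-β1 and 4.43 and 4.92 RPKM in controls (log2 fold change -0.28, adjusted p = 0.316, limma). Of the 13 alternatives, only voom called it lower (-0.50, adjusted p = 0.0229), and voom shifted the median of all tested genes by -0.18. CHPF and CSGALNACT2 had overlapping groups. CSGALNACT1 had 1 and 0 reads with TGF-β1 and 0 in both controls, and CHSY3 had 3 and 3 reads with TGF-β1 and 1 and 1 in controls, a ratio of 2.74 with a 95% counting interval of 0.490 to 27.7.

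Sulfation of chondroitin was where the largest rise lay. CHST11 (ENSG00000171310.10, hg38 chromosome 12, 104455295 to 104762014, plus strand), which sulfates chondroitin at position 4, was measured at 10.1 and 8.78 RPKM with TGF-β1 and at 1.93 and 1.92 RPKM in controls. Both TGF-β1 libraries were far above both controls, with means of 9.44 ± 0.93 and 1.92 ± 0.0095 RPKM (SD, n = 2 each), a ratio of 4.91. On the log2 scale the rise was 2.03 (SE 0.14, adjusted p = 0.00335, limma), on 272 and 268 reads with TGF-β1 and 42 and 58 in controls. CHST12, a second 4-O-sulfotransferase, had overlapping groups, with 2.14 and 2.10 RPKM with TGF-β1 and 1.93 and 2.12 RPKM in controls. Within a library CHST11 stood at 4.72 and 4.19 times CHST12 with TGF-β1 and at 1.00 and 0.906 times in controls, a ratio that library scaling cannot alter.

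CHST3 (ENSG00000122863.5, chromosome 10, 71964365 to 72013564, plus strand), the main chondroitin 6-O-sulfotransferase, had 37.6 and 38.3 RPKM with TGF-β1 and 18.2 and 14.9 RPKM in controls. The groups were clearly apart, and the rise was 2.30-fold (log2 fold change 1.18, SE 0.11, adjusted p = 0.00705, limma), although it missed the threshold without the variance trend (adjusted p = 0.0535). CHST7, the related 6-O-sulfotransferase, was low at 2.15 and 2.74 RPKM with TGF-β1 and 3.16 and 2.74 RPKM in controls and did not pass. CHST15 (ENSG00000182022.17, chromosome 10, 124007666 to 124093607, minus strand), which adds a second sulfate to 4-sulfated units, was measured at 13.9 and 15.6 RPKM with TGF-β1 and at 7.09 and 8.65 RPKM in controls. This was a 1.88-fold rise (log2 fold change 0.87, SE 0.13, adjusted p = 0.0227, limma) whose call was lost when TGF-β1 replicate 2 was left out (adjusted p = 0.0895) or no trend was fitted (0.0821). CHST14, which sulfates dermatan at position 4, had overlapping groups.

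Summed by position, the 4-O-sulfotransferases CHST11, CHST12 and CHST13 reached 12.6 and 10.9 RPKM with TGF-β1 and 3.94 and 4.57 RPKM in controls. The 6-O-sulfotransferases CHST3 and CHST7 reached 39.7 and 41.1 RPKM with TGF-β1 and 21.3 and 17.6 RPKM in controls. Transcripts for position 6 thus outnumbered those for position 4, per kilobase, in every library. CHST3 was 3.72 and 4.36 times CHST11 with TGF-β1 and 9.41 and 7.76 times in controls, so the groups did not overlap. CHST3 was also 10.4 and 9.78 times the polymerase CHSY1 with TGF-β1 and 4.10 and 3.02 times in controls.

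**Figure D2:**
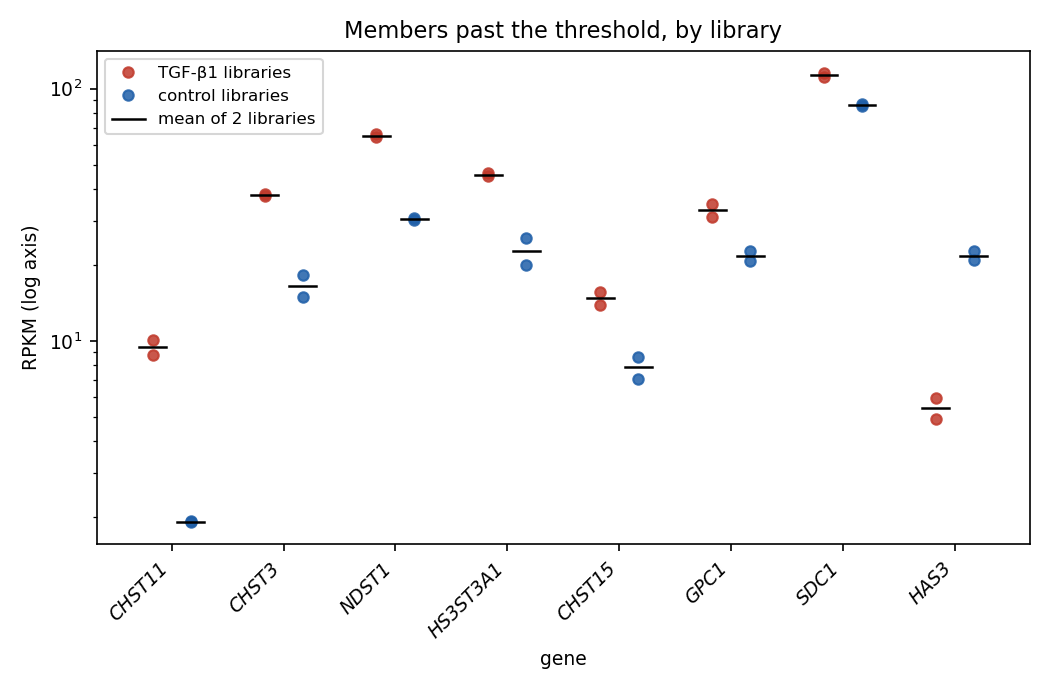
RPKM (log axis) of the 8 members past the threshold in each library, TGF-β1 libraries left of controls, with a bar at the mean of 2 libraries. In no gene do the groups overlap, and CHST11 has the widest upward gap, between 8.78 RPKM in the lower TGF-β1 library and 1.93 RPKM in the higher control.

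Heparan chains are polymerised by the EXT1 and EXT2 complex, with EXTL3 starting the chain and EXTL2 able to end the linker. None of these 4 passed. EXT1 had 7.24 and 7.46 RPKM with TGF-β1 and 9.72 and 9.85 RPKM in controls, with no overlap (log2 fold change -0.39, SE 0.10, adjusted p = 0.0785, limma). It did pass once the filter was raised to 2 RPKM (adjusted p = 0.049), with scaling by total recovered reads (0.0331) and with voom (2.32e-05), each time lower with TGF-β1. EXT2 was measured at 12.1 and 12.6 RPKM with TGF-β1 and at 10.2 and 11.4 RPKM in controls (adjusted p = 0.338, limma). Its log2 fold change of 0.18 shrank to 0.0095 with scaling by total recovered reads. Within a library EXT2 stood at 1.67 and 1.68 times EXT1 with TGF-β1 and at 1.05 and 1.15 times in controls. EXTL3 and EXTL2 had log2 fold changes of 0.10 and -0.12.

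The enzyme that follows polymerisation rose. NDST1 (ENSG00000070614.14, chromosome 5, 150485818 to 150558211, plus strand) removes acetyl groups from glucosamine and puts sulfate in their place, the step on which later heparan sulfation depends. Its level was 64.0 and 66.2 RPKM with TGF-β1 and 30.2 and 30.7 RPKM in controls, a 2.14-fold rise with means of 65.1 ± 1.5 and 30.4 ± 0.32 RPKM (SD, n = 2 each). The libraries of each group were close together and far from the other group (log2 fold change 1.08, SE 0.06, adjusted p = 0.00256, limma). NDST2 had 2 and 1 reads with TGF-β1 and 1 and 0 in controls. In GENCODE 29, 82.9% of its exonic bases are shared with ENSG00000272916 on the same strand, which had 0 and 1 reads with TGF-β1 and in controls alike, and the handling of reads in shared bases is unknown here. A low count of NDST2 is therefore uncertain.

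Further along the chain, the epimerase GLCE and the uronyl 2-O-sulfotransferase HS2ST1 had overlapping groups, at 1.25 and 1.39 RPKM with TGF-β1 and 1.31 and 1.43 RPKM in controls for GLCE. HS2ST1 was uneven among controls, at 3.32 and 3.27 RPKM with TGF-β1 and 2.44 and 4.00 RPKM in controls. The 6-O-sulfotransferase HS6ST1 had 5.93 and 5.10 RPKM with TGF-β1 and 7.90 and 7.97 RPKM in controls, with no overlap (log2 fold change -0.49, SE 0.12, adjusted p = 0.0801, limma). Like EXT1 it passed, as lower, once the filter was raised to 2 RPKM (adjusted p = 0.0496), with scaling by total recovered reads (0.0468) and with voom (0.000173). A share of 15.1% of its 50-base words also occurs in another gene, most in the pseudogene HS6ST1P1. HS6ST2 lay at 6.61 and 7.03 RPKM with TGF-β1 and 7.22 and 9.63 RPKM in controls (log2 fold change -0.27, adjusted p = 0.379, limma), and it too was called lower with voom (-0.50, adjusted p = 0.00619). The all-gene median (log2) moved by -0.15 with scaling by total recovered reads and by -0.18 with voom. Those shifts apply to the EXT1 calls at these settings too. NDST1 stood at 10.8 and 13.0 times HS6ST1 with TGF-β1 and at 3.82 and 3.85 times in controls, and at 8.84 and 8.87 times EXT1 with TGF-β1 against 3.11 times in both controls.

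**Figure D3:**
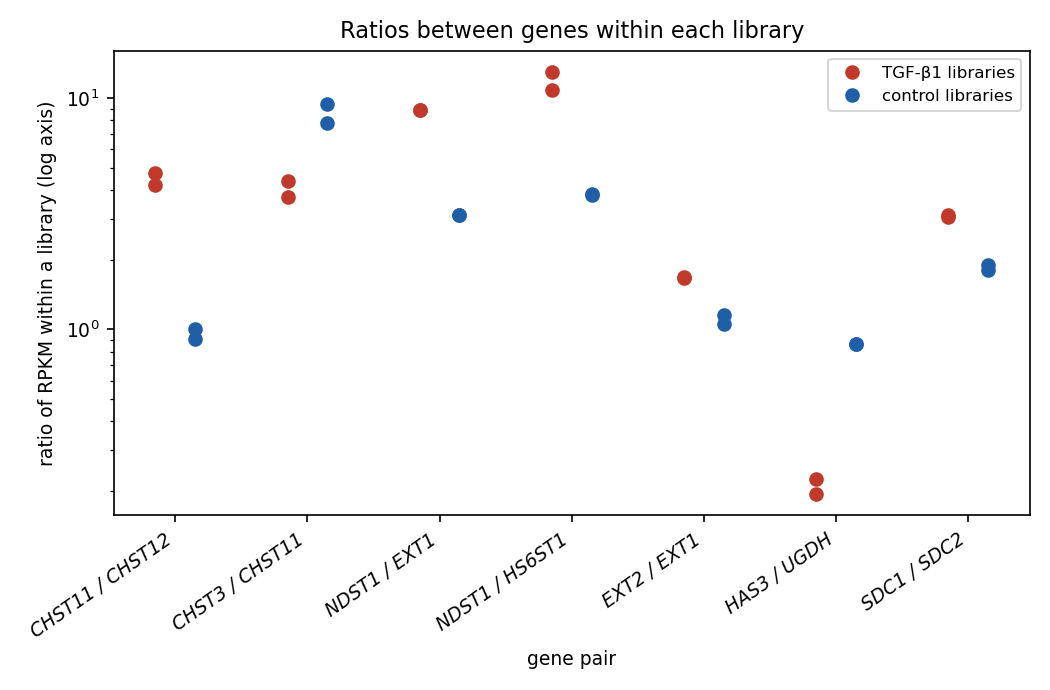
Ratio of the RPKM of 2 genes within each library (log axis), TGF-β1 libraries left of controls. The CHST11 to CHST12 ratio lies between 4.19 and 4.72 with TGF-β1 and between 0.906 and 1.00 in controls, and the HAS3 to UGDH ratio between 0.194 and 0.226 with TGF-β1 and between 0.863 and 0.867 in controls.

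HS3ST3A1 (ENSG00000153976.2, chromosome 17, 13495689 to 13601927, minus strand) adds the rare 3-O-sulfate, and its products are known as receptors for herpes simplex glycoprotein D. It was measured at 46.2 and 45.1 RPKM with TGF-β1 and at 25.6 and 20.0 RPKM in controls. The groups did not overlap, and the rise was 2.0-fold (log2 fold change 1.00, SE 0.13, adjusted p = 0.0154, limma), with no call without the variance trend (adjusted p = 0.0762). A share of 20.4% of its 50-base words also occurs in another gene, most in its neighbour and paralog HS3ST3B1, so reads cannot be split firmly between them. HS3ST3B1 also rose, with 4.24 and 3.30 RPKM with TGF-β1 and 1.46 and 1.65 RPKM in controls (log2 fold change 1.05, adjusted p = 0.0400, limma). That call was lost whichever library was left out (adjusted p up to 0.183 over all alternatives). The reads of both genes together numbered 598 and 640 with TGF-β1 and 254 and 287 in controls, before scaling for library size. That sum is free of the split only if each shared read was counted once, which is unknown here. HS3ST1, which makes the antithrombin-binding site, had 0 reads with TGF-β1 and 2 and 2 reads in controls, too few for a change to be read. The extracellular sulfatases SULF1 and SULF2, which remove 6-O-sulfate, each had 1 and 0 reads with TGF-β1 and 0 in both controls, so no change in them was detectable at this depth.

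HAS3 (ENSG00000103044.10, chromosome 16, 69105564 to 69118719, plus strand), 1 of the 3 membrane synthases that spin out hyaluronan, was the one member that fell. It had 4.89 and 5.92 RPKM with TGF-β1 and 20.9 and 22.7 RPKM in controls, on 107 and 147 reads with TGF-β1 and 374 and 564 in controls. Means were 5.41 ± 0.73 RPKM with TGF-β1 and 21.8 ± 1.3 RPKM in controls (SD, n = 2 each), which put TGF-β1 at 0.248 of control. The log2 fold change, -1.92 (SE 0.12, adjusted p = 0.00303, limma), lay between -2.19 and -1.79 under all 13 alternatives. Of its exonic bases 6.90% are shared with CHTF8 on the opposite strand. HAS2 had 0 and 1 reads with TGF-β1 and 0 in both controls, and HAS1 had 0 with TGF-β1 and 1 and 0 in controls. HAS3 was thus nearly the whole synthase signal, and the 3 synthases together had 4.97 and 6.05 RPKM with TGF-β1 and 21.1 and 22.8 RPKM in controls. Its direction was opposite to that of the 5 sulfotransferases past the threshold.

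Precursors come from UGDH, which makes UDP-glucuronic acid, from UXS1, which turns that into UDP-xylose, and from PAPSS1 and PAPSS2, which make the sulfate donor PAPS. None of the 4 passed. UGDH had 25.3 and 26.2 RPKM with TGF-β1 and 24.1 and 26.3 RPKM in controls, and its sign turned with median-of-ratios scaling. UXS1 had the smallest p, with 5.43 and 4.61 RPKM with TGF-β1 and 6.78 and 7.35 RPKM in controls (log2 fold change -0.46, SE 0.14, adjusted p = 0.114, limma). Its groups did not overlap, and it passed with voom only (adjusted p = 5.30e-05), where the median of all tested genes shifted by -0.18. PAPSS1 was measured at 3.98 and 5.10 RPKM with TGF-β1 and 3.01 and 3.58 RPKM in controls (adjusted p = 0.261, limma), and PAPSS2 had overlapping groups.

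The 2 most abundant members by mean RPKM were the core proteins SDC1 and SDC4. SDC1 (syndecan 1, ENSG00000115884.10, chromosome 2, 20200797 to 20225433, minus strand), a transmembrane core with heparan and chondroitin chains, was measured at 111.5 and 115.1 RPKM with TGF-β1 and at 85.2 and 87.1 RPKM in controls. The rise was small, 1.31-fold, but larger than the spread (log2 fold change 0.39, SE 0.06, adjusted p = 0.0207, limma). It was not called with scaling by total recovered reads (log2 fold change 0.21, adjusted p = 0.0617), without either TGF-β1 replicate (0.0671 and 0.0975), without control replicate 1 (0.0625) or without the variance trend (0.163). GPC1 (glypican 1, ENSG00000063660.8, chromosome 2, 240435671 to 240468078, plus strand), a lipid-anchored heparan core, had 35.02 and 31.1 RPKM with TGF-β1 and 22.7 and 20.8 RPKM in controls. Its rise was 1.52-fold (log2 fold change 0.59, SE 0.09, adjusted p = 0.0259, limma), and it was not called with scaling by total recovered reads (0.41, adjusted p = 0.0859), without TGF-β1 replicate 1 (0.0923), without control replicate 2 (0.0582) or without the variance trend (0.113).

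SDC4 (syndecan 4), a focal adhesion core, had overlapping groups at 94.6 and 83.4 RPKM with TGF-β1 and 79.2 and 88.9 RPKM in controls. VCAN (versican), a large chondroitin core that binds hyaluronan, had 19.5 and 20.0 RPKM with TGF-β1 and 16.2 and 18.4 RPKM in controls (log2 fold change 0.19, 95% interval -0.05 to 0.43, adjusted p = 0.291, limma). BGN (biglycan), a small leucine-rich core, was measured at 5.54 and 6.19 RPKM with TGF-β1 and at 2.71 and 3.86 RPKM in controls. Both TGF-β1 libraries were above both controls, but the test was missed (log2 fold change 0.77, SE 0.20, adjusted p = 0.0813, limma), on 56 and 71 reads with TGF-β1 and 22 and 44 in controls. Without control replicate 2 BGN passed (0.99, adjusted p = 0.0477), in a fit where the lone control is assumed to vary like the TGF-β1 libraries.

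**Figure D4:**
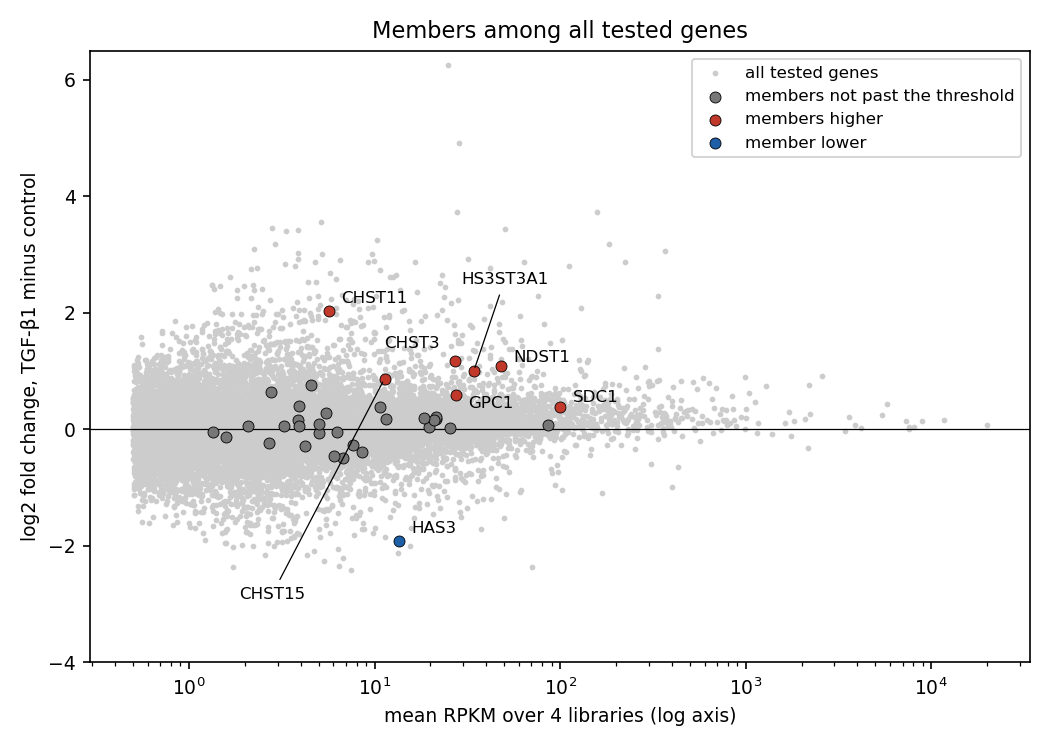
Log2 fold change (TGF-β1 minus control) against mean RPKM over 4 libraries (log axis) for all 16590 tested genes, with the 36 tested members marked. The 8 members past the threshold are named, and the other 28 lie between -0.49 and 0.77.

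Genes of the same pathway outside the 44 were read from 5 further lists. Over all tested genes 9.12% were called, with a median log2 fold change of 0.03. The called share was 41.7% of tested other cores, 50% of hyaluronan receptors and link proteins and 16.7% of breakdown genes. It was 6.67% of donor supply and 20% of other polymer enzymes. These lists hold between 4 and 18 tested genes, so 1 gene moves a share a long way. Some of the shares count genes that reached the filter only through the TGF-β1 libraries (TNFAIP6, CEMIP and GFPT2). Among 27 other proteoglycan cores analysed, 12 were tested, of which 4 rose and 1 fell, with a median log2 fold change of 0.01. SPOCK1 (testican 1), a secreted heparan and chondroitin core, rose to 25.3 and 26.1 RPKM with TGF-β1, against 14.2 and 16.2 RPKM in controls (log2 fold change 0.74, adjusted p = 0.0144, limma). The glypicans GPC2 (0.54, adjusted p = 0.0332) and GPC6 (0.95, adjusted p = 0.0479) and the basement membrane core COL18A1 (0.31, adjusted p = 0.0447) also rose by limma. SDC2 (syndecan 2) fell to 36.6 and 37.1 RPKM with TGF-β1, against 44.96 and 48.2 RPKM in controls (log2 fold change -0.34, adjusted p = 0.0486, limma). GPC2, GPC6, COL18A1 and SDC2 each lost the call whichever library was left out, and SPOCK1 lost it when TGF-β1 replicate 2 was left out (adjusted p = 0.0592) or no trend was fitted (0.0778). Without strand in the counting, GPC6 and COL18A1 are uncertain, since 7.36% and 16.4% of their exonic bases lie opposite another gene.

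Syndecans and glypicans differed in what they summed to. The 4 syndecans came to 256.1 and 247.7 RPKM with TGF-β1 and 226.3 and 241.5 RPKM in controls, with SDC1 at 3.05 and 3.11 times SDC2 with TGF-β1 and 1.89 and 1.81 times in controls. The glypicans came to 78.4 and 77.7 RPKM with TGF-β1 and 54.6 and 57.2 RPKM in controls, a ratio of means of 1.40. SDC3 was close to the threshold, with 13.5 and 12.1 RPKM with TGF-β1 and 17.0 and 17.2 RPKM in controls (adjusted p = 0.0600, limma), and LUM (lumican), a small leucine-rich core, had 8.76 and 6.74 RPKM with TGF-β1 and 12.1 and 12.9 RPKM in controls (adjusted p = 0.0567, limma). Both passed as lower with median-of-ratios scaling, at an adjusted p of 0.0461 for SDC3 and 0.0478 for LUM, and also with the filter at 2 RPKM, with total recovered reads and with voom. The basement membrane heparan cores AGRN (agrin) and HSPG2 (perlecan) had log2 fold changes of -0.10 and -0.28 and did not pass (adjusted p = 0.346 and 0.15, limma). Both were called lower with scaling by total recovered reads, AGRN at -0.28 (adjusted p = 0.0331) and HSPG2 at -0.45 (0.048), and with voom (1.06e-06 and 8.68e-06).

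Hyaluronan-binding proteins were measured alongside the synthases. Of 9 receptors and link proteins analysed, 4 were tested and 2 rose, with a median log2 fold change of 0.81. TNFAIP6, a secreted protein that loads heavy chains onto hyaluronan, had 20 and 26 reads with TGF-β1 and 1 and 2 in controls, a ratio of 14.0 with a 95% counting interval of 4.50 to 70.3 (log2 fold change 2.25, adjusted p = 0.00821, limma). Its control mean of 0.309 RPKM lay under the filter of 0.5 RPKM, which TNFAIP6 reached through the TGF-β1 libraries. HAPLN3, a link protein that ties hyaluronan to proteoglycans, rose to 6.18 and 5.57 RPKM with TGF-β1, against 2.89 and 1.84 RPKM in controls (1.18, adjusted p = 0.0388, limma), a call lost in 6 of 13 alternatives. The hyaluronan receptor CD44 had 17.1 and 21.7 RPKM with TGF-β1 and 12.9 and 15.2 RPKM in controls, without overlap and without passing (adjusted p = 0.144, limma), and was called higher with voom (adjusted p = 0.0231).

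Of 20 breakdown genes listed 18 were analysed, all of them tested, of which 1 rose and 2 fell, with a median log2 fold change of -0.02. CEMIP, a protein needed for cleavage of extracellular hyaluronan, rose to 2.38 and 2.16 RPKM with TGF-β1, against 0.368 and 0.516 RPKM in controls (log2 fold change 1.56, adjusted p = 0.0230, limma), on 75 and 77 reads with TGF-β1 and 9 and 18 in controls. Its control mean of 0.442 RPKM lay under the filter of 0.5 RPKM, which CEMIP reached through the TGF-β1 libraries. HPSE, the heparanase that cuts heparan chains, fell to 2.57 and 2.09 RPKM with TGF-β1, against 4.65 and 4.75 RPKM in controls (-0.88, adjusted p = 0.0392, limma). SGSH, a lysosomal enzyme that removes N-linked sulfate from heparan, fell to 3.06 and 3.91 RPKM with TGF-β1, against 6.04 and 6.89 RPKM in controls (-0.81, adjusted p = 0.0486, limma). Both falls were lost whichever library was left out, and the call of CEMIP was lost without a filter on low values (adjusted p = 0.0632), without control replicate 1 (0.057) and without either TGF-β1 replicate (0.11 and 0.0994). The other 15, such as GUSB and GLB1, did not pass.

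Among 17 genes of donor supply, 15 were tested and 1 rose, with a median log2 fold change of -0.08. That was GFPT2, a rate-setting enzyme of UDP-N-acetylglucosamine synthesis, with 46 and 64 reads with TGF-β1 and 1 and 0 in controls, a ratio of 100.4 with a 95% counting interval of 17.6 to 4001 (log2 fold change 2.47, adjusted p = 0.00928, limma). It was not called without TGF-β1 replicate 2 (adjusted p = 0.0531). The control mean of GFPT2, 0.0574 RPKM, lay under the filter of 0.5 RPKM, which GFPT2 reached through the TGF-β1 libraries. Its paralog GFPT1 had overlapping groups at 5.25 and 5.04 RPKM with TGF-β1 and 5.11 and 6.44 RPKM in controls. BPNT1, which clears the by-product of sulfation, just missed at 4.75 and 5.90 RPKM with TGF-β1 and 9.43 and 8.44 RPKM in controls (adjusted p = 0.0503, limma), and the sulfate carrier SLC26A2 had 3.51 and 3.29 RPKM with TGF-β1 and 1.97 and 1.99 RPKM in controls (adjusted p = 0.0812, limma). With voom both were called, BPNT1 as lower (adjusted p = 5.03e-05) and SLC26A2 as higher (0.00765), and BPNT1 also with the filter at 2 RPKM (0.0308) and with either other scaling (0.0484 and 0.0286). Voom and both other scalings shifted the median of all tested genes downward. Among 17 other polymer enzymes and sulfotransferases analysed, 5 were tested and HS3ST3B1 alone passed. CHST2, which sulfates N-acetylglucosamine at position 6, was below the filter with 8 and 10 reads with TGF-β1 and 1 and 1 in controls, a ratio of 8.21 with a 95% counting interval of 1.97 to 73.0. CHST9, also below the filter, went the other way, with 1 and 3 reads with TGF-β1 and 4 and 12 in controls.

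**Figure D5:**
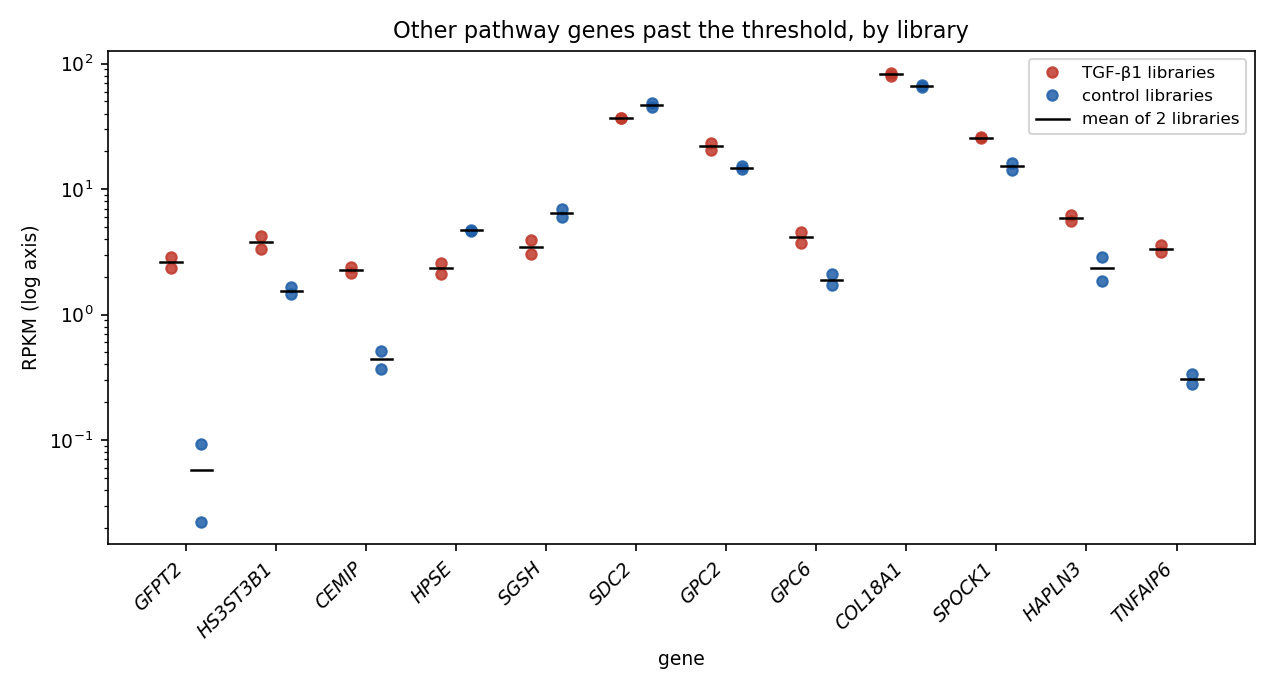
RPKM (log axis) of the 12 other pathway genes past the threshold in each library, TGF-β1 libraries left of controls, with a bar at the mean of 2 libraries. The control points of GFPT2 rest on 1 and 0 reads and those of TNFAIP6 on 1 and 2, and HPSE, SGSH and SDC2 are the 3 that lie lower with TGF-β1.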

How the data were processed

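Total RNA of 4 HK-2 libraries was sequenced, 2 with TGF-β1 and 2 controls, and titles gave each library's group and number. RPKM values were what the authors deposited, in 1 table (reads scaled to exon length and library size) for 25609 versioned Ensembl identifiers. The tools in the submitters' processing notes are STAR 2.7.1a, bcl2fastq 2.20.0.422 and DESeq2, with hg38 as the build and no roles stated. The library kit marks strand, per the labels' protocols, but whether counting used it, with which annotation and tool, is not given here, and without strand the reads of antisense neighbours cannot be told apart.

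Symbols were looked up by identifier (25312 matched). Coordinates and exon lengths came from GENCODE 29 on hg38. Multiplied by exon length, each library's values fell on whole reads plus an offset of 0.5, within 0.01 read for 100% of identifiers with the same version, so whole reads were recovered for 25503 genes. They summed to 4639276 and 5452258 for TGF-β1 replicates 1 and 2 and to 3337059 and 4802151 for control replicates 1 and 2. The library sizes the authors scaled by were 0.896 and 0.864 times these totals with TGF-β1 and 1.02 and 0.979 times in controls, which raises TGF-β1 values relative to scaling by total reads.

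Tests used limma 3.58.1 (R 4.3.3) with a trended eBayes variance on log2(RPKM + 0.5), for the 16590 genes whose mean RPKM reached 0.5, with Benjamini-Hochberg adjustment across them. The code was tested on simulated data. Calls are at an adjusted p below 0.05. A log2 fold change is on that scale and understates the change of low genes, and a fold is a ratio of mean RPKM. Every member is accounted for, and members past the threshold are given with each library's value, as are those close to it and other pathway genes past it. The members and gene lists were chosen with earlier results of these data known. A further breakdown gene, outside the lists as counted, is not reported here. Alternatives were 2 other pseudocounts, 2 other filters, 2 other scalings, voom on recovered reads, no variance trend, leaving out each library and a replicate block. With 1 library left out, its group's lone library is assumed to vary like the other group's pair. Promoter windows are RefSeq's (GRCh38.p14), and the planned protein description was not made. Counting intervals cover counting error only.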

Additional observations from a re-analysis of the deposited data

How the results depend on the processing

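Scaling by total recovered reads shifted the all-gene median by -0.15 (log2) and gave 655 higher and 883 lower calls, against 1015 and 498 as deposited. Higher genes made up 42.6% of calls there, 67.1% as deposited, 62.0% with median-of-ratios scaling and 29.9% with voom on recovered reads. Voom shifted the all-gene median by -0.18. Lower calls numbered 2786 with voom and 297 without a filter on low values. Without the variance trend there were 280 higher and 144 lower. Leaving out 1 library gave 395 to 842 higher and 179 to 297 lower. Of the members, 2 were called higher without the trend (CHST11 and NDST1). Called lower were 3 with scaling by total reads, 3 at a mean RPKM of at least 2 and 6 with voom. With 1 library left out, 5 to 7 members were called higher and 1 lower.

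In the breakdown list (3 called) the counts were 0 without a filter, 7 with voom, 1 without the trend, 2 with the replicate block and 0 to 1 with 1 library left out. In other cores (5 called) they were 1, 8, 0, 2 and 0 to 2 in the same order. Hyaluronan receptors and link proteins (2 called) gave 1 without a filter, at a mean RPKM of at least 2, with total reads and without the trend, 4 with voom and 1 to 2 with 1 library left out. Donor supply (1 called) gave 2 with median-of-ratios scaling, 2 with total reads, 7 with voom and 0 to 1 with 1 library left out. Other polymer enzymes (1 called) gave 0 with total reads, without the trend, with the replicate block and with any library left out.

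Signs turned only in members that were not called. With total reads and with voom, in that order, log2 fold changes were -0.0072 and -0.0171 for B4GALT7, -0.0043 and -0.0043 for B3GALT6, -0.13 and -0.14 for FAM20B, -0.10 and -0.17 for CSGALNACT2, -0.0155 and -0.03 for CHPF, -0.0889 and -0.12 for CHST12, -0.0666 and -0.0712 for EXTL3, -0.0929 and -0.16 for HS2ST1, -0.15 and -0.16 for UGDH and -0.10 and -0.11 for SDC4. UGDH was at -0.0147 with median-of-ratios scaling. With 1 library left out the ranges were -0.15 to 0.0647 for XYLT2, -0.0934 to 0.0185 for GLCE, -0.0079 to 0.17 for SDC4, -0.0118 to 0.10 for FAM20B, -0.25 to 0.36 for CSGALNACT2, -0.24 to 0.37 for HS2ST1, -0.0337 to 0.0915 for UGDH and -0.15 to 0.0197 for CHST14. The cause of these changes was not tested.

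Libraries of the same number did not deviate together (r = 0.0261 across genes), so the numbers were not taken to pair the samples. With the replicate block 7 members were called higher and 1 lower, with 947 higher and 397 lower calls over all genes. The depth of 3337059 to 5452258 reads limits the 8 members below the filter, which had at most 3 reads in any library.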
